A study of Mus musculus with 27 samples.

Results

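The desmosome and intercalated disc genes followed here were Dsp, Pkp2, Jup, Dsg2, Dsc2, Cdh2, Gja1 and Gja5. They were taken by name from the array's gene list, each read by the brightest probe set that carries that gene symbol alone, and they make up 8 of the 19938 genes with a symbol. Each of the 8 had 1 such probe set, so no choice between probe sets was needed.

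Heart muscle cells are joined end to end at the intercalated disc, where desmosomes anchor the desmin filaments, N-cadherin junctions anchor the contractile filaments and gap junctions pass current. In a desmosome the cadherins of the membrane, desmoglein-2 (Dsg2) and desmocollin-2 (Dsc2), are held by the armadillo proteins plakophilin-2 (Pkp2) and plakoglobin (Jup), and these are tied to the filaments by desmoplakin (Dsp). Mutations of these desmosomal genes are known for causing arrhythmogenic cardiomyopathy. N-cadherin (Cdh2) is the cadherin of mesenchymal cells and of the disc, the connexin Gja1 forms the gap junctions of working ventricle and of fibroblasts, and the connexin Gja5 those of atrium, conduction system and arterial endothelium. Desmosomal genes are also a property of epithelia, and Jup takes part in N-cadherin and VE-cadherin junctions as well.

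Total RNA of 27 mouse cultures was hybridised at Day 3, 1 array per culture and 3 cultures per group, to ask how blocking or adding TGFβ signalling alters the conversion of fibroblasts towards cardiomyocyte-like cells. Mouse embryonic fibroblasts (MEFs) carried either no reprogramming factor (0TF, called empty vector and also no factor treatment in the labels) or lentiviruses for Hand2, Nkx2.5, Gata4, Mef2C and Tbx5 (HNGMT). Each was kept with the vehicle DMSO, with 0.5 µM of SB431542 (SB), an inhibitor of the TGFβ, Activin and Nodal type I receptors, or with 2 ng/mL of TGFβ1. Adult cardiac fibroblasts (CFs) all carried HNGMT and were kept with DMSO, with 5 µM SB or with 2 ng/mL TGFβ1. Lentiviruses for the doxycycline-controlled activator rtTA and for a Troponin T-GCaMP calcium reporter were added before the factors, and doxycycline was given at 2 µg/mL from Day 0. The molecules were added at Day -1. MEFs came from embryos of mixed background without head, viscera and heart, and CFs from digested adult hearts, both after several passages. CF cultures without factors were not analysed here, so no effect of HNGMT can be given in CFs. For the CF arrays the labels give a protocol that speaks of MEFs.

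A change was called where the Benjamini-Hochberg adjusted p of limma's moderated test over all genes was under 0.05 and the log2 fold change was at least 0.58 (1.5-fold) in MEFs, or at least 0.32 in CFs. Differences between effects, also those between CFs and MEFs, were held to 0.58. Values are log2 intensities, and differences between groups are log2 fold changes with their standard error (SE). Per the labels, triplicates were independent biological samples. The median of an array over all probe sets was 7.83 to 7.91 for MEFs but 7.36 to 7.43 for CFs, so levels in MEFs and CFs are given side by side and were not tested against each other. No detection call was used, so whether a low value lies above background was not assessed.

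Hand2 probes separated the groups as labelled, with 8.77 to 9.30 in the 9 cultures of 0TF MEFs and 11.57 to 11.77 in the 9 of HNGMT MEFs. For Nkx2-5, Gata4 and Mef2c no rise with HNGMT was called in DMSO, and Tbx5 was 0.94 lower (SE 0.07, adjusted p = 7.53e-09). In its RT-PCR the study listed human (Hs) assays for Nkx2-5, Gata4, Mef2c and Tbx5 and a mouse (Mm) assay for Hand2. Whether these mouse probe sets detect the delivered copies was not tested, so the values do not show whether those factors were induced. MEFs expressed the fibroblast genes Col1a1 and Vim, and the mean of 9 endothelial markers in them was between 7.14 and 7.57. CF cultures also expressed Col1a1 (12.23 ± 0.04 with DMSO, SD, n = 3) and Vim (13.77 ± 0.02), but their endothelial genes were high: endomucin (Emcn) stood at 13.03 ± 0.06, VE-cadherin (Cdh5) at 12.61 ± 0.02 and Pecam1 at 11.73 ± 0.11 with DMSO. Such levels go against a pure fibroblast culture. In CFs with SB, replicate 3 stood apart from the other 2, with an endothelial mean of 9.46 against 10.97 and 10.97. In these bulk samples fewer cells of a type and less RNA per cell cannot be told apart.

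Promoter sequences are shown for the members whose start sites are held in the RefSeq promoter table (GRCm38.p6), so that the letters near the start of the gene with the largest response, Dsp, can be read beside those of Jup, Gja5 and the connexin that did not rise, Gja1. Each run of 300 bases spans 250 bases before to 50 after the start site in that table, 5′ to 3′ on the gene's strand. Positions are chr13:38151044-38151343 (plus strand) for Dsp, chr11:100397741-100398040 (minus) for Jup, chr3:97032152-97032451 (plus) for Gja5 and chr10:56377050-56377349 (plus) for Gja1. Capitals mark matches to the letters named after the sequences.
Dsp: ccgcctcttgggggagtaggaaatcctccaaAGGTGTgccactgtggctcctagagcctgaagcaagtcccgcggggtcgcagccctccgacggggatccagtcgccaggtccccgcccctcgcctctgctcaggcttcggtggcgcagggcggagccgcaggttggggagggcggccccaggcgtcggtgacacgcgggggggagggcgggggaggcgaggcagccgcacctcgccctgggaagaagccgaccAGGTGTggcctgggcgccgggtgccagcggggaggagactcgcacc
Jup: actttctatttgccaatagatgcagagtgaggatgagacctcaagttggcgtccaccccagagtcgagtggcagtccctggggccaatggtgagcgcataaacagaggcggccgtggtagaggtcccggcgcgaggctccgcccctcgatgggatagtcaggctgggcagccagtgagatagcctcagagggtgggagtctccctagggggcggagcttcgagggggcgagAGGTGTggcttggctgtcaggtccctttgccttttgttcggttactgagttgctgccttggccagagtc
Gja5: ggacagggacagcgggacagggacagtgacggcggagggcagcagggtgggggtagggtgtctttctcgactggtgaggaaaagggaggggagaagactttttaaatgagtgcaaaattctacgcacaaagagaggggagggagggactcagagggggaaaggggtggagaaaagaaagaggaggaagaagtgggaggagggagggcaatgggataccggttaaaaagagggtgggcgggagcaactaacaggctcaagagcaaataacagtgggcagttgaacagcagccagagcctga
Gja1: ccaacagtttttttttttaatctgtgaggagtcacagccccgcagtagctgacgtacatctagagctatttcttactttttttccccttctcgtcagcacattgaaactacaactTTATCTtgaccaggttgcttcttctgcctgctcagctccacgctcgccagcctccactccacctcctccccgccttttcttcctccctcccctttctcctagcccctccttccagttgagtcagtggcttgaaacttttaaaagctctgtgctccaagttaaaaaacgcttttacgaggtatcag

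The letters searched on both strands were AGATAA for GATA factors, AGGTGT and the longer GGTGTGA for T-box factors, TNAAGTG for NKX2-5, CATCTG for the E-box of HAND factors, CAGACA for SMADs, and the MEF2 motif. AGGTGT was added after these promoters had been read, and it overlaps GGTGTGA. The Dsp window held AGGTGT at bases 32 to 37 and 255 to 260, and the Jup window at bases 232 to 237. These letters occur in 13.7% of the 32851 promoters of the same length. The Gja1 window held the GATA letters on its minus strand (TTATCT at bases 116 to 121), which 11.2% of promoters hold. No other match was found in the 4 windows, and the letters searched occur in 3.98% (GGTGTGA), 11.5% (TNAAGTG), 17.2% (CATCTG), 21.0% (CAGACA) and 3.19% (MEF2) of all promoters. GC content was 73.0% for Dsp, 60.7% for Jup, 55.7% for Gja5 and 47.7% for Gja1, against a median of 52.7% over all promoters. Pkp2, Dsg2, Dsc2 and Cdh2 had no entry in the table.

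**Figure D1:**
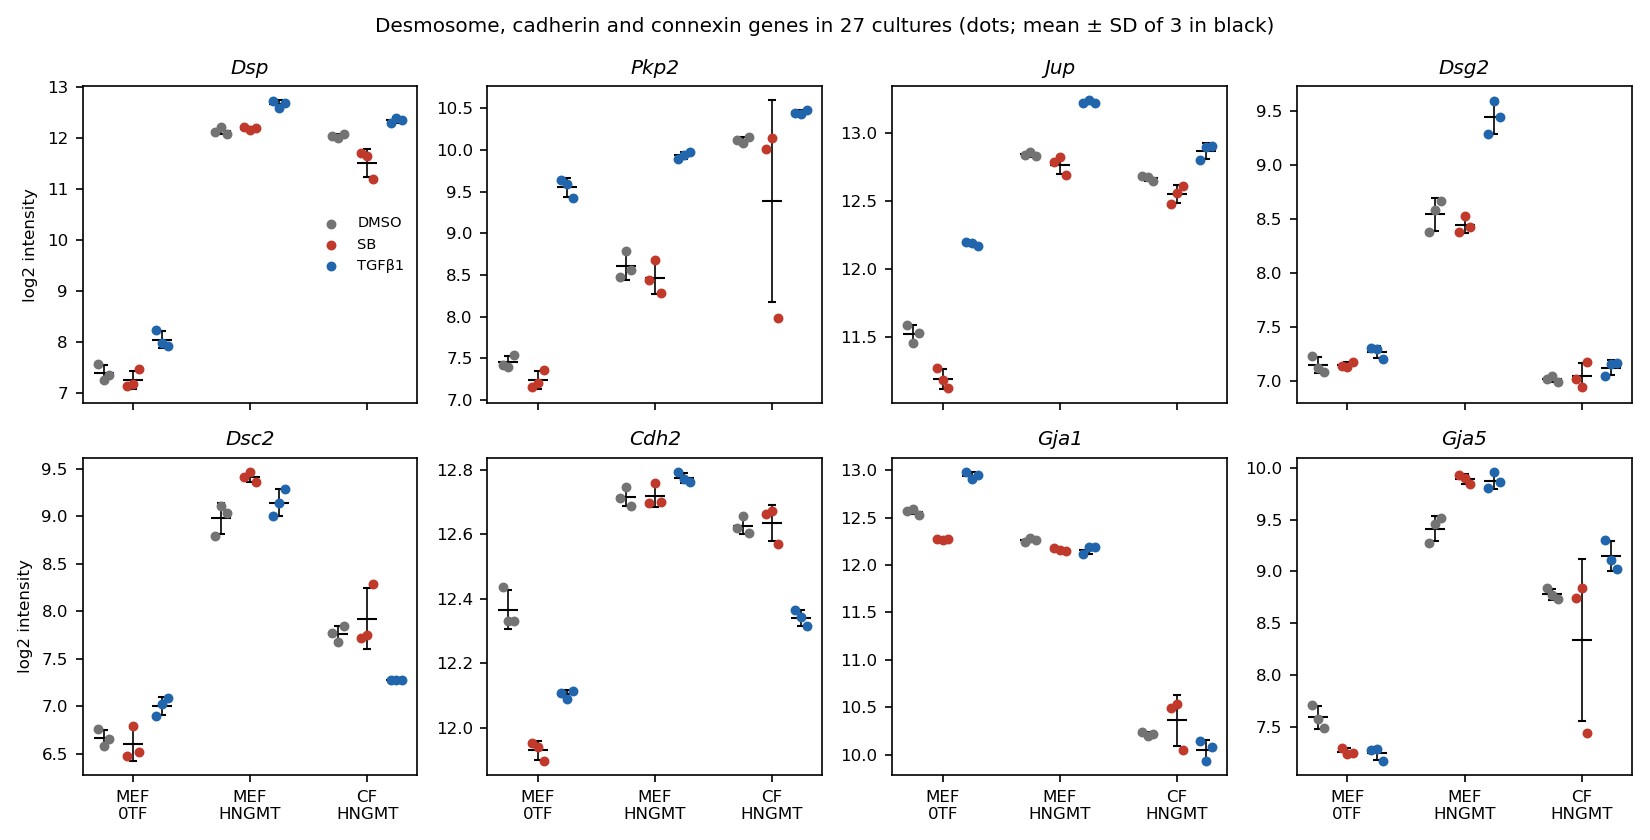
Log2 intensity (y axis) of each gene in every culture (dots), by cell type and factors (x axis) and molecule (grey DMSO, red SB, blue TGFβ1), with mean ± SD of the 3 cultures in black; each panel has its own y scale. Dsp lay between 7.14 and 8.24 in 0TF MEFs and at or above 12.09 in HNGMT MEFs, and replicate 3 of CFs with SB lay apart for Pkp2 and Gja5.

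With HNGMT, 6 of the 8 genes rose in MEFs kept with DMSO, led by desmoplakin at 27.1-fold. Of all genes, 4.56% were called higher in this comparison, and for 46.7% the HNGMT and 0TF cultures did not overlap. The median of the 8 fold changes was 1.36 on the log2 scale, against -0.01 over all genes. All 5 desmosomal genes rose. Of the junction partners outside the desmosome, Gja5 rose, while Cdh2 and Gja1 moved by less than the fold threshold, Cdh2 upwards and Gja1 downwards.

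Dsp, the plakin that ties the desmosome to intermediate filaments, measured 7.57, 7.25 and 7.35 in the 0TF cultures with DMSO and 12.14, 12.23 and 12.09 in the HNGMT cultures. The groups lay far apart, and the change of 4.76 (SE 0.09, 95% interval 4.56 to 4.96, adjusted p = 7.77e-17) was at place 4 from the top among 19938 genes. It was 4.93 with SB (adjusted p = 2.86e-17) and 4.63 with TGFβ1 (adjusted p = 6.87e-17).

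Pkp2, the armadillo protein that links desmosomal cadherins to desmoplakin, measured 7.42, 7.40 and 7.55 without factors and 8.48, 8.79 and 8.56 with HNGMT. All HNGMT cultures were higher, by 1.15 (SE 0.09, adjusted p = 1e-08). Jup, the other armadillo protein, was already at 11.59, 11.46 and 11.53 without factors and reached 12.83, 12.86 and 12.83. This was a rise of 1.32 (SE 0.04, adjusted p = 5.97e-14), again with no overlap between the groups.

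Of the desmosomal cadherins, Dsg2 measured 7.23, 7.12 and 7.09 without factors and 8.38, 8.59 and 8.67 with HNGMT, a rise of 1.40 (SE 0.08, adjusted p = 4.92e-11). Dsc2, its partner, measured 6.76, 6.58 and 6.65 without factors and 8.80, 9.11 and 9.04 with HNGMT. The Dsc2 rise of 2.32 (SE 0.09, adjusted p = 7.13e-13) was 5.00-fold. Neither gene had overlapping groups. The Dsc2 values without factors lay between percentiles 21.0 and 24.8 of all genes, and their detection was not assessed.

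Cdh2, the cadherin that fibroblasts and cardiomyocytes share, stood at 12.44, 12.33 and 12.33 without factors and 12.71, 12.75 and 12.69 with HNGMT. Its difference of 0.35 (SE 0.04, adjusted p = 2.18e-07) was a 1.27-fold one and was not called. With SB and with TGFβ1 the HNGMT effect on Cdh2 was 0.79 (adjusted p = 2.98e-12) and 0.67 (adjusted p = 2.56e-11), and both were called. In those comparisons the 0TF cultures were the lower ones, at 11.90 to 11.95 with SB and 12.09 to 12.12 with TGFβ1, against 12.33 to 12.44 with DMSO.

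The 2 connexins moved in opposite directions. Gja5, the atrial and conduction connexin, measured 7.71, 7.58 and 7.49 without factors and 9.28, 9.46 and 9.51 with HNGMT, a rise of 1.82 (SE 0.06, adjusted p = 1.16e-13). Gja1, high in fibroblasts, measured 12.57, 12.59 and 12.53 without factors and 12.25, 12.29 and 12.27 with HNGMT. The Gja1 groups did not overlap, but the difference of -0.30 (SE 0.03, adjusted p = 6.22e-07) was short of the fold threshold. With TGFβ1 it was called lower, from 12.98, 12.90 and 12.95 without factors to 12.11, 12.19 and 12.19 with HNGMT (-0.78, SE 0.03, adjusted p = 1.06e-12).

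With SB the HNGMT effect was called for 7 of the 8 genes, all higher, where 5.04% of all genes were called higher. With TGFβ1 it was called for 6 higher (6.37% of all genes) and for Gja1 lower (3.88% of all genes). Pkp2 was the exception with TGFβ1: its 0TF cultures measured 9.64, 9.59 and 9.43 and its HNGMT cultures 9.89, 9.94 and 9.98. The difference of 0.38 (SE 0.09, adjusted p = 0.00251) was 1.30-fold and not called. For the remaining genes the rises ranged from 1.22 (Pkp2) to 2.82 (Dsc2) with SB beside Dsp and Cdh2, and from 1.04 (Jup) to 2.63 (Gja5) with TGFβ1 beside the same genes. Genes of other cell types moved with HNGMT as well. The mean of 8 cardiomyocyte markers ran from 7.72 to 7.85 without factors and from 10.01 to 10.09 with HNGMT in DMSO. That of 9 epithelial markers ran from 7.23 to 7.30 and from 7.68 to 7.80, with only Krt8 (1.67) and Krt18 (2.06) called higher. Of these 9, 6 were higher and none lower by the adjusted p alone, where 21.6% of all genes were higher and 18.9% lower. The mean of 7 mesothelial markers ran from 7.92 to 7.99 and from 8.35 to 8.47, with only Krt19 (1.28) and Upk3b (1.07) called higher. By the adjusted p alone, 5 of the 7 were higher and 2 lower, where 21.6% of all genes were higher and 18.9% lower. The mean of 5 smooth muscle markers ran from 10.51 to 10.56 and from 11.17 to 11.28, with 4 called higher. The mean of 8 fibroblast markers ran from 13.21 to 13.24 and from 12.73 to 12.75, with 3 called lower. Of all genes, 4.56% were called higher and 4.51% lower. The part of cell mixture in the desmosomal result was not tested.

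**Figure D2:**
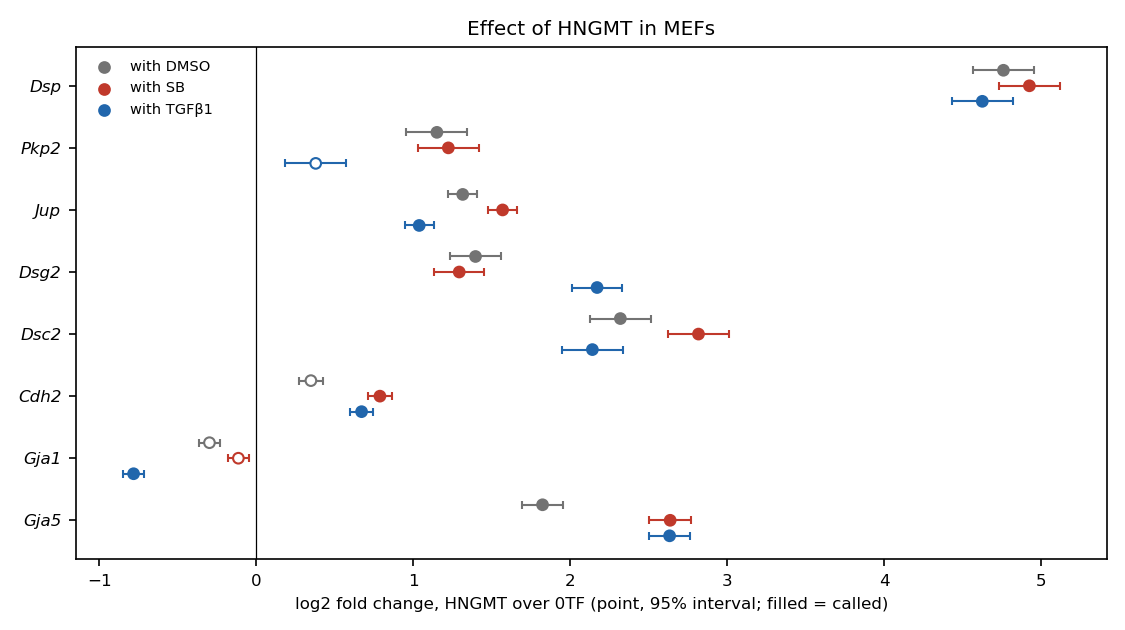
Log2 fold change of HNGMT over 0TF in MEFs (x axis) for each gene (y axis) with DMSO (grey), SB (red) or TGFβ1 (blue); bars are 95% intervals and filled points were called. Dsp lay between 4.63 and 4.93 with each molecule, and Gja1 was the only gene below 0.

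TGFβ1 raised Pkp2 in MEFs, both without and with the factors. Without factors 3 of the 8 genes were called higher (Pkp2, Dsp and Jup), where 4.21% of all genes were called higher. With HNGMT 2 were called higher (Pkp2 and Dsg2), where 2.23% of all genes were called higher. None was called lower in either. The TGFβ1 and DMSO cultures did not overlap for 57.6% of all genes without factors and for 41.8% with HNGMT. Each comparison used the DMSO cultures that also served the SB comparison.

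Pkp2 without factors measured 7.42, 7.40 and 7.55 with DMSO and 9.64, 9.59 and 9.43 with TGFβ1. The change of 2.10 (SE 0.09, 95% interval 1.90 to 2.29, adjusted p = 2.37e-12) was 4.28-fold and lay at place 33 from the top of all genes. With HNGMT it went from 8.48, 8.79 and 8.56 to 9.89, 9.94 and 9.98, a rise of 1.33 (SE 0.09, adjusted p = 2.79e-09). The TGFβ1 cultures without factors were thus above the HNGMT cultures with DMSO, and the 6 MEF groups stood in the order 0TF SB, 0TF DMSO, HNGMT SB, HNGMT DMSO, 0TF TGFβ1 and HNGMT TGFβ1, in which only HNGMT SB and HNGMT DMSO overlapped as neighbours. The effect of TGFβ1 was smaller with HNGMT by 0.77 (difference -0.77, SE 0.13, adjusted p = 0.000162).

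Dsg2 had the reverse pattern. Without factors it measured 7.23, 7.12 and 7.09 with DMSO and 7.31, 7.30 and 7.20 with TGFβ1, and these values overlapped (0.12, 95% interval -0.04 to 0.28, adjusted p = 0.201). With HNGMT all TGFβ1 cultures (9.29, 9.60 and 9.45) were above those with DMSO (8.38, 8.59 and 8.67), a rise of 0.90 (SE 0.08, adjusted p = 3.46e-08). The TGFβ1 effect was larger with HNGMT by 0.77 (SE 0.11, adjusted p = 2.07e-05). The Dsg2 values without factors lay between percentiles 30.7 and 34.1 of all genes on their arrays. Whether they are above background was not assessed.

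Dsp and Jup rose with TGFβ1 without factors, Dsp from 7.57, 7.25 and 7.35 to 8.24, 7.99 and 7.93 and Jup from 11.59, 11.46 and 11.53 to 12.20, 12.19 and 12.16. Both changes were 0.66 (SE 0.09, adjusted p = 9.79e-06 for Dsp, and SE 0.04, adjusted p = 5.78e-10 for Jup). Without 0TF TGFβ1 replicate 1 the Dsp change was 0.57 and under the fold threshold. With HNGMT the differences were 0.53 for Dsp and 0.38 for Jup, which passed the adjusted p (0.000187 and 1.42e-06) but not the fold. The difference between the 2 TGFβ1 effects on Dsp was -0.13 (95% interval -0.41 to 0.14, adjusted p = 0.506), and that on Jup was -0.28 (adjusted p = 0.00178), under the fold threshold.

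The connexins changed by less than the fold threshold. Gja5 measured 7.27, 7.28 and 7.17 with TGFβ1 without factors, below the DMSO cultures (-0.35, SE 0.06, adjusted p = 0.000155, not called). With HNGMT it measured 9.81, 9.96 and 9.86, above them (0.46, SE 0.06, adjusted p = 1.22e-05, not called). The difference between these changes was called, at 0.81 (SE 0.09, adjusted p = 1.45e-06). The detection of the Gja5 values without factors was not assessed. Gja1 ran the other way, with 0.38 without factors (adjusted p = 2.21e-08) and -0.10 with HNGMT (adjusted p = 0.0177), a difference of -0.48 that was not called (adjusted p = 2.57e-07, 1.40-fold). The differences for Pkp2, Dsg2 and Gja5 were the 3 called among the 8 genes, where 7.45% of all genes were called in either direction.

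Marker lists moved with TGFβ1 beside these changes. With HNGMT the epithelial mean went from between 7.68 and 7.80 to between 8.39 and 8.45, with 6 of 9 genes called higher and none lower, and the cardiomyocyte mean from between 10.01 and 10.09 to between 9.74 and 9.81. Esrp1, an epithelial splicing factor, rose by 1.57 (adjusted p = 2.71e-13) and Krt8 by 1.10 (adjusted p = 6.57e-11). Without factors the epithelial mean was 7.23 to 7.30 with DMSO and 7.29 to 7.32 with TGFβ1, and 5 of 5 smooth muscle genes were called, 4 of them higher. The mean of 8 fibroblast markers went from between 13.21 and 13.24 to between 12.68 and 12.78 without factors and from between 12.73 and 12.75 to between 12.07 and 12.18 with HNGMT. In each setting 3 of the 8 were called lower and none higher, among them lumican (Lum, -2.36 and -2.05). Of all genes, 6.19% were called lower without factors and 3.54% with HNGMT. Called higher were 4.21% of all genes without factors and 2.23% with HNGMT. The part of cell mixture in the changes of Pkp2 and Dsg2 was not tested.

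**Figure D3:**
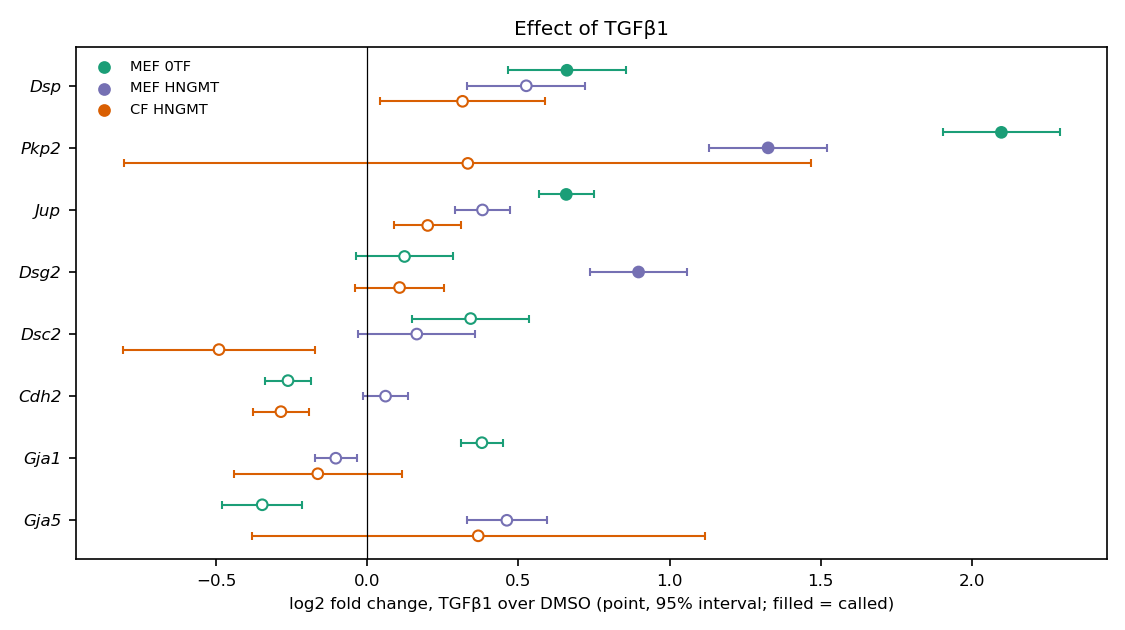
Log2 fold change of TGFβ1 over DMSO (x axis) for each gene (y axis) in 0TF MEFs (green), HNGMT MEFs (purple) and HNGMT CFs (orange); bars are 95% intervals and filled points were called. Pkp2 rose by 2.10 and 1.33 in the MEFs, Dsg2 rose by 0.90 in HNGMT MEFs, and the wide CF bars of Pkp2 and Gja5 come from a fit that includes CF SB replicate 3.

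None of the 8 genes was called with SB in MEFs, without factors or with HNGMT. Of all genes, 2.4% were called in either direction without factors and 0.823% with HNGMT. At an unadjusted limma p under 0.05 there were 5 of the 8 genes without factors, where 25.4% of all genes were, and 3 with HNGMT, where 17.4% were. By the adjusted p alone, 4 of the 8 genes were lower with SB without factors, where 7.87% of all genes were, and 2 were higher with HNGMT, where 3.34% of all genes were.

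The 4 lower genes without factors were Cdh2 (-0.44, adjusted p = 4.92e-08), Gja5 (-0.33, adjusted p = 0.000862), Jup (-0.33, adjusted p = 1.8e-05) and Gja1 (-0.29, adjusted p = 2.79e-06). Gja1 measured 12.57, 12.59 and 12.53 with DMSO and 12.28, 12.27 and 12.27 with SB, and for none of the 4 did the groups overlap, which held for 30.3% of all genes. Each of these folds was under 1.5. For Dsp and Dsg2 the differences were -0.13 (95% interval -0.32 to 0.07) and 0.00 (-0.16 to 0.16).

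With HNGMT the higher genes were Gja5 and Dsc2. Gja5 measured 9.94, 9.90 and 9.85 with SB against 9.28, 9.46 and 9.51 with DMSO (0.48, SE 0.06, adjusted p = 5.81e-05). Dsc2 measured 9.42, 9.46 and 9.36 against 8.80, 9.11 and 9.04 (0.43, SE 0.09, adjusted p = 0.00538). The differences were 1.39-fold and 1.35-fold. The groups did not overlap for these genes, nor for Jup (-0.08) and Gja1 (-0.11), which held for 20.8% of all genes. Dsp, at 12.22, 12.16 and 12.20, differed from its DMSO cultures by 0.04 (95% interval -0.16 to 0.23).

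For Gja5 the SB effect itself differed between the settings, lower without factors and higher with HNGMT, by 0.81 (SE 0.09, 95% interval 0.63 to 1.00, adjusted p = 7.09e-06). It was the only one of the 8 genes with a called difference of SB effects, where 1.96% of all genes were called. With HNGMT the Gja5 values with SB and TGFβ1 overlapped each other, and both groups lay above DMSO. Without factors the Gja5 values with DMSO and SB lay between percentiles 32.7 and 40.1 of all genes. Whether those values are above background was not assessed. The cardiomyocyte mean ran from 10.38 to 10.84 with HNGMT and SB, above the 10.01 to 10.09 with DMSO, and its part in the Gja5 result was not tested.

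In CFs with HNGMT, Dsg2 stayed between 6.95 and 7.18 over all 9 cultures. Dsp measured 12.05, 12.00 and 12.09 with DMSO, beside 12.14, 12.23 and 12.09 in HNGMT MEFs. Dsg2 measured 7.02, 7.05 and 6.99 with DMSO, beside 7.23, 7.12 and 7.09 in MEFs without factors and 8.38, 8.59 and 8.67 in MEFs with HNGMT. Gja1 measured 10.24, 10.20 and 10.21, and the MEF groups ranged from 12.11 to 12.98.

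None of the 8 genes was called in CFs for TGFβ1, where 5.32% of all genes were called in either direction, nor for SB, where 0.241% were. At an unadjusted limma p under 0.05 there were 4 of the 8 genes for TGFβ1, where 21.7% of all genes were, and 2 for SB, where 6.22% were. By the adjusted p alone, Jup (0.20, adjusted p = 0.0423) and Cdh2 (-0.29, adjusted p = 0.00473) passed for TGFβ1, where 4.51% of all genes were higher and 3.37% lower by that rule, and none passed for SB. The fit of the 9 CF cultures included SB replicate 3, which widened the spread for several of these genes. Pkp2 measured 10.01 and 10.15 with SB in replicates 1 and 2 and 7.99 in replicate 3. Gja5 measured 8.74 and 8.84 against 7.44, and Dsc2 7.72 and 7.75 against 8.29. In that culture the endothelial mean was the lowest of the 9 CF cultures, the cardiomyocyte mean was 9.24 against 10.00 and 10.06, and the fibroblast mean was 11.67 against 11.10 and 11.11. The part of cell mixture in the values of Pkp2, Gja5 and Dsc2 was not tested.

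Left out of the fit, that culture no longer set the spread, and 3 genes were called for TGFβ1 with the same log2 fold changes, where 10.8% of all genes were called in either direction. Pkp2 measured 10.12, 10.08 and 10.15 with DMSO and 10.45, 10.43 and 10.48 with TGFβ1 (0.33, adjusted p = 0.808 with the culture and 0.000924 without it). Gja5 measured 8.84, 8.78 and 8.73 and then 9.30, 9.11 and 9.03 (0.37, adjusted p = 0.634 with and 0.00732 without). Dsc2 was the lower one, at 7.77, 7.68 and 7.84 and then 7.28, 7.27 and 7.27 (-0.49, adjusted p = 0.0742 with and 0.000151 without). The values of these genes did not overlap between TGFβ1 and DMSO, which held for 32.9% of all genes. Beside them the endothelial mean was 10.73 to 10.79 with DMSO and 10.11 to 10.12 with TGFβ1, and the smooth muscle mean was 11.28 to 11.32 with DMSO and 11.93 to 11.95 with TGFβ1. The cardiomyocyte mean was 10.09 to 10.12 with DMSO and 9.60 to 9.68 with TGFβ1, with Ryr2 (-0.71) and Tnni3 (-1.36) called lower, and the epithelial mean was 7.19 to 7.36 and 7.52 to 7.65, with Krt8 (1.51) called higher. The part of cell mixture in these TGFβ1 changes was not tested.

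For SB in CFs, Dsp measured 11.71, 11.65 and 11.21, all below the DMSO cultures (-0.52, SE 0.12, adjusted p = 0.223). These groups did not overlap for 9.44% of all genes. Without replicate 3 the Dsp difference was -0.36 (SE 0.05, adjusted p = 0.00605) and was called, where 1.03% of all genes were called lower. In the same fit Gja1 was 0.30 higher with SB (SE 0.06, adjusted p = 0.0383), under the fold threshold. With replicate 3 the Gja1 difference was 0.15 (adjusted p = 0.957). The differences for Pkp2 and Gja5 were -0.74 and -0.44 with replicate 3 and -0.04 and 0.01 without it, so they rested on that culture. The SB dose was 5 µM in CFs and 0.5 µM in MEFs, and the SB effects of the cell types were not compared.

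**Figure D4:**
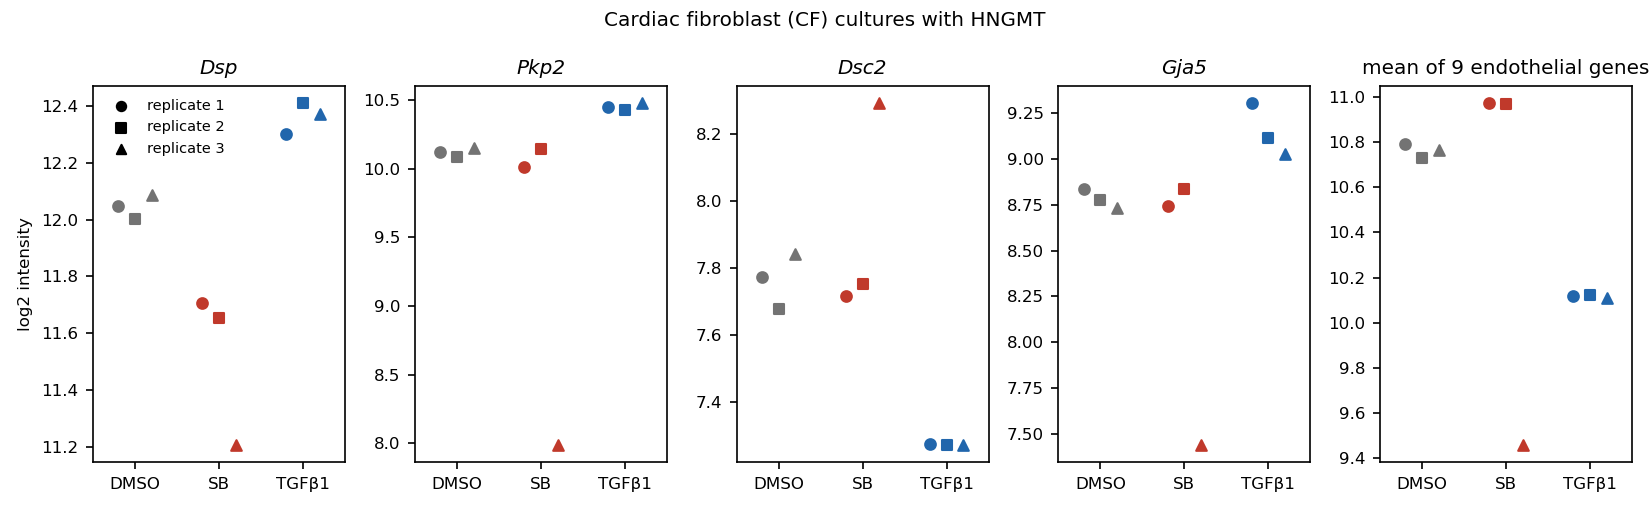
Log2 intensity (y axis) in each HNGMT CF culture by molecule (x axis), with circles, squares and triangles for replicates 1, 2 and 3, for 4 genes and for the mean of 9 endothelial markers. The triangle of the SB group lay at 7.99 for Pkp2, 7.44 for Gja5 and 9.46 for the endothelial mean, below the other 8 cultures.

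The TGFβ1 effect with HNGMT differed between CFs and MEFs for 2 of the 8 genes, where 4.38% of all genes were called in either direction. Dsg2 changed by 0.11 in CFs and by 0.90 in MEFs, a difference of -0.79 (SE 0.11, adjusted p = 1.29e-05). Its CF values with DMSO and TGFβ1 lay between percentiles 35.8 and 38.6 of all genes, and their detection was not assessed. Dsc2 changed by -0.49 in CFs and by 0.16 in MEFs, a difference of -0.65 (SE 0.16, adjusted p = 0.00763). The Dsc2 call was lost without MEF HNGMT DMSO replicate 1 (-0.56) and without MEF HNGMT TGFβ1 replicate 3 (-0.58). The Pkp2 difference of -0.99 was not called with CF SB replicate 3 in the fit (adjusted p = 0.153) and was called without it (adjusted p = 9.43e-07), where 5.16% of all genes were called in either direction.

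Other genes of the same junctions were followed from lists, and beside them 4.56% of all genes were called higher and 4.51% lower with HNGMT in DMSO. Of 11 other desmosomal genes, most of them epidermal, none was called higher with HNGMT in DMSO and 1 lower (periplakin, Ppl, -0.73), with a median of 0.00. Of 13 other connexins none was called by limma, and 6 had an unadjusted p under 0.05, as did 45.4% of all genes. Of 20 adherens junction genes 5 were called higher and 3 lower, among them afadin (Afdn, 1.27) and αE-catenin (Ctnna1, 1.04) higher and αN-catenin (Ctnna2, -1.26) lower. Of 19 further genes associated with the intercalated disc 7 were called higher and 1 lower, with a median of 0.27. The 3 named by the smallest p were Popdc2 (3.61), the filament protein desmin (Des, 3.25) and the Z-disc protein Ldb3 (2.74). The Des cultures stood at 7.30 to 7.54 without factors and 10.60 to 10.69 with HNGMT. Medians of these lists stand beside -0.01 over all genes. The adherens genes Cdh1 and Cdh5 are also on the epithelial and endothelial lists.

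With TGFβ1 and HNGMT in MEFs, 4 of the 19 disc-associated genes were called higher and none lower (median 0.34 against 0.02 over all genes). Of all genes, 2.23% were called higher and 3.54% lower in this comparison. Among the 4 were Popdc3 (1.16), the actin-binding Xirp1 (1.14) and Popdc2 (0.62). Xirp1 (1.19) and Popdc3 (1.15) were called higher in CFs too. The desmosomal membrane protein Perp rose with TGFβ1 in each of the 3 comparisons. The rise was 1.10 in 0TF MEFs (adjusted p = 1.56e-10), 0.67 in HNGMT MEFs (adjusted p = 2.43e-07) and 0.68 in CFs (SE 0.17, adjusted p = 0.0489). Without factors TGFβ1 lowered the plakophilin relative Pkp4 (-0.75) and Ppl (-0.83).

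Among other connexins, SB lowered Gjb2 in MEFs by 1.22 (difference -1.22) without factors and by 1.26 (difference -1.26) with HNGMT. TGFβ1 lowered Gjb2 (-0.70) and Gjc1 (-0.68) in 0TF MEFs. In CFs TGFβ1 raised Gja4 by 1.23 and Gjc1 by 0.33, the latter at 8.58 to 8.67 with DMSO and 8.91 to 8.99 with TGFβ1. Gja4 and Gja5 are the connexins of arterial endothelium.

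**Figure D5:**
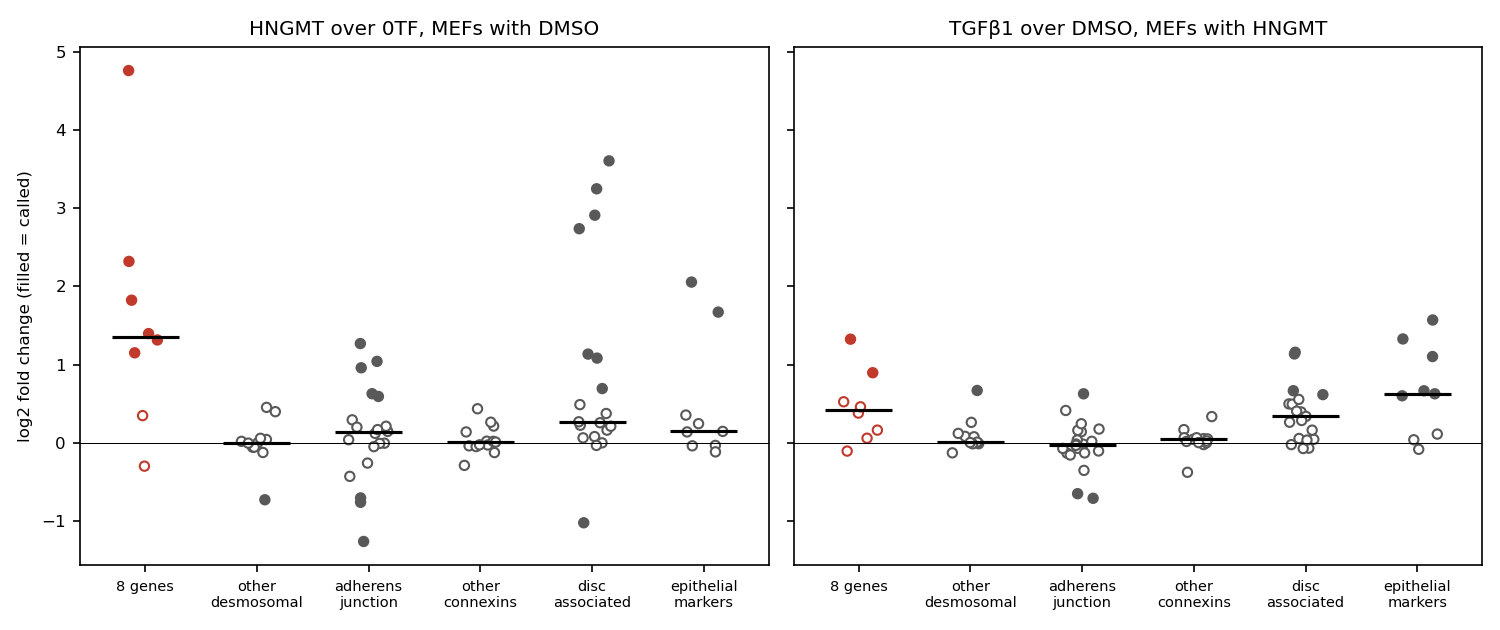
Log2 fold change (y axis) of every measured gene of each list (x axis; filled points were called, bars are list medians), for HNGMT over 0TF with DMSO (left) and TGFβ1 over DMSO with HNGMT (right) in MEFs. The 8 genes had a median of 1.36 on the left, and the epithelial markers one of 0.63 on the right.

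Over the 18 MEF arrays, Dsp and Dsc2 were the pair of the 8 genes with the highest correlation (Pearson r = 0.99), and Gja1 and Gja5 the pair with the lowest (r = -0.72). Pkp2 correlated with the other desmosomal genes at r from 0.52 (Dsc2) and 0.57 (Dsp) to 0.64 (Dsg2) and 0.79 (Jup). These arrays fall into a 0TF and an HNGMT set, so any gene that differs between the sets correlates with Dsp, and of the 2538 genes compared 230 reached r of 0.95 or more with it. The genes with the highest r were Serpina9, Mgat4a and Ldb3 for Dsp (each 0.996 or more), Mmp13, Rhbdd1 and Ogdhl for Pkp2 (0.986 or more), and Cdk18, Rcan1 and Lta4h for Jup (0.990 or more). For Dsg2 they were Ppp2r2c, Art1 and Susd4, for Dsc2 Plxna4, Tbc1d8 and Plekha7, and for Gja5 Gpx3, Bambi and Popdc2, all at 0.993 or more.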

How the data were processed

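Each of 27 cultures gave 1 Affymetrix Mouse Gene 1.0 ST array. The deposited values are log2 intensities, summarised per probe set by the authors with Affymetrix Microarray Suite 5.0 and Partek software; the background and normalization settings are not given in the sources used here, and the values were used as deposited. Of 35556 probe sets, 21789 carried 1 gene symbol in GEO's platform annotation, 1621 several and 12146 none. Probe sets with several symbols or none were left out, and 999 genes with more than 1 probe set were represented by the brightest, which gave 19938 genes. No column of sample values was left unused (0).

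Linear models with 1 coefficient per group were fitted by lmFit and eBayes of limma 3.58.1 (R 4.3.3). MEF and CF arrays were fitted apart, with 12 and 6 residual degrees of freedom, and the difference between cell types used all arrays (18). In all 12 contrasts were tested, p-values were adjusted by Benjamini-Hochberg over all genes, and the thresholds within MEFs and within CFs are those the study applied, while 1.5-fold was set here for the difference between cell types. The number of arrays limits the precision. The fit was tested on simulated data. The lowest correlation between cultures of a group was 0.98, and no pair was identical.

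The 8 genes and the gene lists were chosen with earlier results of these data known, so their counts are descriptions, set beside the share of all genes called. Named genes were the 8, up to 3 genes per list and comparison with the smallest p among calls whose cultures did not overlap, the delivered factors, and the 3 genes of highest Pearson r with each of the 8 whose MEF group means spanned at least 1 (log2). Cell type levels and Gjc1, Des and Hand2 values are given as ranges over cultures. The lists also covered mesothelium, smooth muscle and leukocytes; the leukocyte mean was between 6.67 and 7.50 and the mesothelial mean between 7.81 and 9.03 in all cultures. Alternatives changed the arrays in the fit, a replicate block, a filter on dim genes (40th percentile), how probe sets were summarised, the normalization, the variance model and the fold threshold, and left out each culture in turn. Python 3.11.15 drew the figures with matplotlib 3.10.9.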

Additional observations from a re-analysis of the deposited data

Results flagged for a closer look

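Differences between effects were tested directly in 3 contrasts, and 6 results for the 8 genes passed. The TGFβ1 effect in MEFs differed between HNGMT and 0TF for Pkp2 by -0.77, with a rise of 2.10 without factors and of 1.33 with them. It differed for Dsg2 by 0.77, from 0.12 without factors to 0.90 with them, and for Gja5 by 0.81, from -0.35 to 0.46. The SB effect in MEFs differed between HNGMT and 0TF for Gja5 by 0.81, from -0.33 without factors to 0.48 with them. The TGFβ1 effect with HNGMT differed between CFs and MEFs for Dsg2 by -0.79 and for Dsc2 by -0.65. Whether the low Dsg2 values in 0TF MEFs and in CFs, and the low Gja5 values in 0TF MEFs, are above background was not assessed.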

How the results depend on the processing

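The numbers of genes called with HNGMT over 0TF were 6 (DMSO), 7 (SB) and 7 (TGFβ1) and stayed within 1.5 times under every alternative run. Without the fold threshold the counts rose to 4 from 0 (SB, 0TF MEFs), 7 from 3 (TGFβ1, 0TF MEFs), 2 from 0 (SB, HNGMT MEFs), 6 from 2 (TGFβ1, HNGMT MEFs), 5 from 1 (difference of SB effects), 6 from 3 (difference of TGFβ1 effects) and 2 from 0 (TGFβ1, CFs), since genes with small folds then count. By that rule 27.5% of all genes were higher and 19.4% lower for TGFβ1 in 0TF MEFs, and 21.5% and 14.3% in HNGMT MEFs. For SB these shares were 8.71% and 7.87% in 0TF MEFs and 3.34% and 4.04% in HNGMT MEFs. They were 4.13% and 4.3% for the difference of SB effects and 15.4% and 15.9% for that of TGFβ1 effects. For TGFβ1 in CFs they were 4.51% and 3.37%. For TGFβ1 in CFs the count was 3 with only the groups of the contrast in the fit, 3 in the fit without CF SB replicate 3, an alternative chosen after seeing the data, and 1 (Cdh2, -0.34, adjusted p = 0.00139) after quantile normalization, whose cause was not tested. Leaving out 1 culture at a time, the counts ran from 2 to 3 (TGFβ1, 0TF MEFs), 1 to 2 (difference of SB effects, where Dsc2 at 0.60 was added without MEF 0TF SB replicate 2), 0 to 1 (SB, CFs) and 1 to 2 (CFs against MEFs). The other leave-one-out ranges were equal to the counts given. No called change reversed its direction.

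Replicate numbers were treated as names only. An array's closest match in the other groups had its own number in 7 of 18 MEF and 5 of 9 CF arrays. With group means taken off, the median correlation in CFs was 0.09 for the same number and -0.07 for other numbers. In MEFs it was -0.02 and 0.01. This check cannot show that the CF numbers carry no pairing. With the replicate number as a block the counts were 0, 3, 0 and 2 for SB and TGFβ1 in 0TF and HNGMT MEFs, and no other count changed.

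Limits are the 3 cultures per group, unknown background settings, no detection calls for values near 7, and a CF SB group in which 1 culture decides the values of Pkp2 and Gja5.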
